A study of Mus musculus with 33 samples.

Results

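Quadriceps RNA of mice lacking Actn3 (KO) was compared with that of wild-type (WT) mice 3 h after an injection of saline. The comparison took every library that the labels place in saline at 3 h, which gave 3 KO and 3 WT libraries, 6 of the 33 in the series. All the mice were adult C57BL6 males, and those of both groups received saline by the intraperitoneal route and no dexamethasone. The KO mice are given as Actn3 null, and how the allele was made is not given in the sources used here. The other libraries came from KO and WT muscle 24 h after saline, and 3 h and 24 h after 1 dose of 20 mg/kg dexamethasone sodium phosphate, a synthetic glucocorticoid. They entered the same model and were used to set the genotype difference at 3 h of saline beside that in libraries it does not share. No label ties a library to its own mouse, so p-values measure the spread between these libraries, which may in part be technical.

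Alpha-actinins are rod-shaped dimers that crosslink actin filaments at the Z-disc, the plate that joins neighbouring sarcomeres of a muscle fibre. Alpha-actinin-3 is the form of fast glycolytic fibres, whereas alpha-actinin-2 is present in all fibres, in the heart and in parts of the brain. Many people lack the protein, without muscle disease, because of a common stop codon in ACTN3, and in mice its loss has been described to shift fast fibres towards oxidative metabolism. Alpha-actinins also bind glycogen phosphorylase, the calsarcins (Myoz genes) and myotilin, and through the calsarcins they are tied to calcineurin signalling.

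Gene counts per library were 31.4 to 34.3 M in KO and 23.3 to 28.9 M in WT, so every KO library was deeper than every WT library. Of 23420 genes 13955 passed the filter on low counts. Levels are CPM, the gene counts scaled to a common library total and for library composition (TMM). A difference is a log2 fold change of KO minus WT with its standard error (SE), and a gene was called at an adjusted p under 0.05 in the quasi-likelihood test of edgeR. The first principal component held 40.6% of the variance of the 6 libraries and separated the genotypes. WT replicate 2 lay nearest to KO on it, and stood apart from the other WT libraries on the second component, which held 18.9%. The 8 muscle fibre markers, among them Ckm and Myh4, summed to between 166469 and 183912 CPM over the 6 libraries, and KO and WT overlapped.

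Actn3 itself separated the genotypes in every library. It stood at 51.0, 58.1 and 66.1 CPM in KO and at 7750, 8010 and 7857 CPM in WT. This is a 135-fold lower level in KO, a log2 fold change of -7.07 ± 0.21 (SE) with an adjusted p of 1.66e-22. In all 8 groups of the series the KO libraries lay between 31.9 and 84.1 CPM and the WT libraries between 6959 and 9704 CPM. None of the other alpha-actinin genes was called by edgeR or DESeq2, or had an unadjusted p under 0.05. Actn2, the form shared by all fibres, stood at 1254, 1075 and 1026 CPM in KO and 786, 894 and 957 CPM in WT. The groups did not overlap, but the difference of 0.35 ± 0.26 had an adjusted p of 0.65. The non-muscle forms Actn1 and Actn4 differed by -0.06 and -0.02.

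The number of genes called depended on the fit. It was 951 with only the 6 libraries in the fit, 342 with DESeq2 and 1221 with limma-voom. Without KO replicate 2 it was 76. In the main fit of all 33 libraries edgeR called 210 of the 13955 genes, which is 1.5%. Of these 91 were higher in KO (0.652% of all tested) and 119 were lower (0.853%). The median size of the log2 difference was 0.81 among called genes against 0.15 among all tested genes, and 20 genes were at least 2-fold higher and 62 at least 2-fold lower. KO and WT libraries did not overlap for 209 of the called genes. They also did not overlap for 26.8% of all tested genes. At an unadjusted p under 0.05 there were 1756 genes, 12.6% of all tested. With library totals alone as the scaling, 64 genes were higher and 132 lower, which puts 32.7% of the calls higher against 43.3% with the main scaling.

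**Figure D1:**
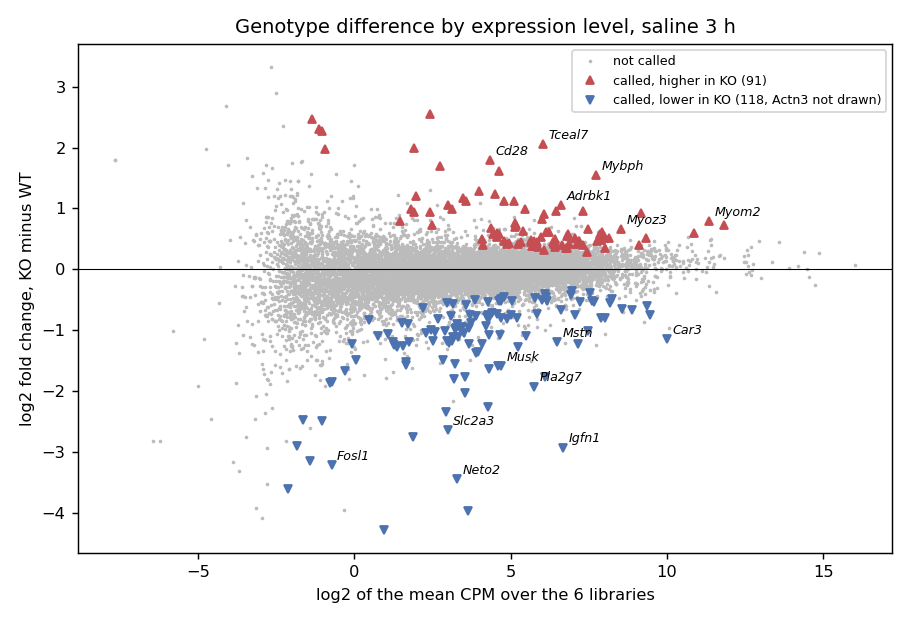
Each point is 1 tested gene; the horizontal axis is the log2 of its mean CPM over the 6 libraries and the vertical axis its log2 fold change, KO minus WT. Called genes are marked by direction (91 higher, 118 lower besides Actn3), and the lower calls reach further from 0 than the higher ones.

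The largest rise among named genes was that of Tceal7, a member of the transcription elongation factor A-like family. It stood at 95.3, 163 and 57.9 CPM in KO and 23.4, 26.9 and 25.7 CPM in WT, a difference of 2.06 ± 0.37 with an adjusted p of 0.00123. The KO libraries spread widely among themselves and all lay above WT. Cd28, a costimulatory receptor known from T cells, stood at 25.7, 38.2 and 31.1 CPM in KO and 9.05, 10.1 and 8.24 CPM in WT (1.80 ± 0.21, adjusted p = 2.02e-06). All KO libraries were at least 2-fold above all WT libraries. The T cell genes Cd3e and Cd4 stood near 0, at 0.0899 to 0.160 CPM and 0.320 to 0.539 CPM in KO and at 0.0422 to 0.114 CPM and 0.338 to 0.458 CPM in WT, and the groups overlapped for both. E2f2, a cell cycle transcription factor, stood at 7.70, 14.0 and 8.92 CPM in KO and 2.51, 4.18 and 2.78 CPM in WT (1.70 ± 0.26, adjusted p = 1.44e-04).

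Other named genes rose by about 2-fold. Rps6kc1, a kinase of the S6 kinase family, stood at 48.6, 47.1 and 47.1 CPM in KO and 22.03, 22.8 and 21.01 CPM in WT (1.12 ± 0.17, adjusted p = 9.46e-05). Neu2, the cytosolic sialidase, stood at 15.0, 17.8 and 13.1 CPM in KO against 6.47, 6.97 and 6.83 CPM in WT (1.18 ± 0.17, adjusted p = 4.38e-05). In both genes the KO libraries lay well above WT and the WT libraries were nearly equal. Ift122, a subunit of the intraflagellar transport machinery of cilia, rose by 1.29, Lrp2bp, which binds the endocytic receptor megalin, by 1.23, and Cyp4f39, a cytochrome P450, by 1.13. Arid5a, an RNA- and DNA-binding protein that stabilises inflammatory transcripts, rose by 1.06. Krt222, of the keratin family, rose by 1.21 (adjusted p = 0.0617 without WT replicate 3), and Tnfrsf19, a receptor of the tumour necrosis factor family, by 1.12 (adjusted p = 0.0773 without WT replicate 1).

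Among genes with a mean log2 CPM of 1 or more the largest falls reached further than the rises, and the largest after Actn3 among genes without a clone name was that of Neto2. Neto2, an auxiliary subunit of kainate-type glutamate receptors, stood at 1.38, 0.959 and 2.62 CPM in KO and 21.2, 11.99 and 20.7 CPM in WT. The difference of -3.44 ± 0.36 had an adjusted p of 2.37e-07, and the highest KO library lay far below the lowest WT library. Slc2a3, the glucose transporter GLUT3 best known from neurons, stood at 2.13, 2.21 and 2.27 CPM in KO and 14.3, 13.3 and 13.6 CPM in WT (-2.64 ± 0.23, adjusted p = 7.74e-09). Libraries within each group were nearly equal, and the level in KO was 6.23-fold lower. Igfn1, an immunoglobulin and fibronectin domain protein of the Z-disc region, stood at 18.6, 15.1 and 37.4 CPM in KO and 250, 120 and 171 CPM in WT (-2.93 ± 0.39, adjusted p = 1.46e-05). Its libraries varied 2-fold or more within each group without overlap between them. Kcnf1, a modulatory subunit of voltage-gated potassium channels, fell by 2.76 ± 0.54 from a low level of 3.59 to 8.91 CPM in WT (adjusted p = 0.0031).

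The other named falls were smaller. Pla2g7, which hydrolyses platelet-activating factor, stood at 24.3, 17.1 and 25.4 CPM in KO and 94.8, 86.7 and 72.5 CPM in WT (-1.93 ± 0.21, adjusted p = 5.32e-07). Spns2, an exporter of sphingosine-1-phosphate, stood at 28.9, 28.9 and 35.2 CPM in KO and 125, 74.1 and 116 CPM in WT (-1.76 ± 0.22, adjusted p = 1.14e-05). For both genes each WT library was at least 2-fold above each KO library. Npnt, the matrix protein nephronectin, fell by 2.26, and Tmem100, a membrane protein linked to bone morphogenetic protein signalling in endothelium, by 2.03. Stab2, a scavenger receptor for hyaluronan, fell by 1.64. The 11 endothelium markers summed to 562 to 678 CPM in KO and 568 to 698 CPM in WT and overlapped. Cidea, a lipid droplet protein of fat cells, fell by 1.80 but was not called without KO replicate 2 (adjusted p = 0.0731) or KO replicate 3 (0.0548). Odf3l2, an outer dense fibre protein relative, fell by 1.77, with adjusted p of 0.0786 and 0.0701 without KO replicates 2 and 3 and of 0.101 without WT replicate 1.

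**Figure D2:**
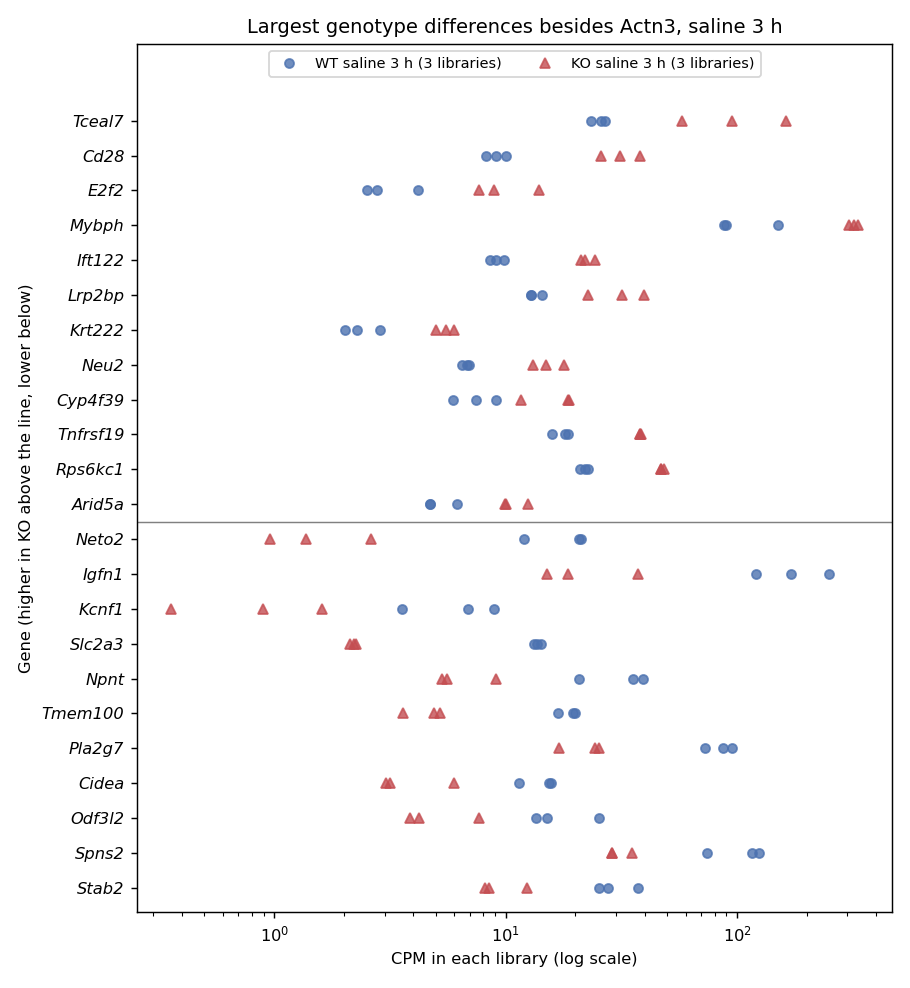
CPM (log scale) of the 12 named genes that rose most and 11 of the 12 that fell most, in each of the 3 KO and 3 WT saline 3 h libraries, with each point a library. The groups do not overlap for any of the genes drawn, a condition of their choice; the width of the gap differs, and is narrow in Cyp4f39 and wide in Slc2a3 and Neto2.

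Of 35 Z-disc proteins other than alpha-actinins, edgeR called 2, both higher in KO, where 1.5% of all tested genes were called. At an unadjusted p under 0.05 there were 10 of the 35, beside 12.6% of all tested genes. DESeq2 called 2 and limma-voom 9, of 342 and 1221 genes they called in all. The median of the list was 0.06 against -0.02 over all tested genes. Myoz3, which encodes a fast-fibre calsarcin that binds alpha-actinin and calcineurin, stood at 412, 483 and 459 CPM in KO and 285, 282 and 289 CPM in WT. Its rise of 0.66 ± 0.10 had an adjusted p of 1.80e-04, and every KO library lay above every WT library. Myot, which encodes the alpha-actinin partner myotilin, stood at 2424, 2400 and 1961 CPM in KO and 1418, 1584 and 1467 CPM in WT (0.60 ± 0.16, adjusted p = 0.0417). Its groups were apart too, but the call was lost without KO replicates 1 or 2 or without any one of the WT libraries, with adjusted p from 0.0652 to 0.199. The other calsarcins Myoz1 and Myoz2 differed by -0.03 and -0.83, with adjusted p of 0.97 and 0.15. The giant scaffolds Ttn and Neb, and Ldb3, a Z-disc protein that binds alpha-actinin, differed by 0.29, 0.45 and 0.50 and were not called.

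Other sarcomere genes were called outside that list. Igfn1, the protein of the Z-disc region described above, was among them and was lower in KO, at -2.93. The others given here were chosen after their values were seen, and were higher in KO. Myom2, the fast-fibre M-protein of the M-band, stood at 3676, 3198 and 3003 CPM in KO and 2029, 1843 and 1818 CPM in WT (0.80 ± 0.14, adjusted p = 0.00104). Obsl1, the obscurin-like linker of the M-band, stood at 54.7, 62.3 and 59.2 CPM in KO and 30.7, 28.9 and 28.9 CPM in WT (0.99 ± 0.18, adjusted p = 0.00178). Both kept their call when any single library was left out, and their groups were far apart. Ankrd23, a titin-binding ankyrin protein, stood 0.74 higher, but 78.2% of its exon bases are shared with another gene and its call was lost when any one of the 6 libraries was left out, with adjusted p from 0.0527 to 0.259.

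Of 20 fast-fibre genes, Actn3 was called lower and Mybph higher, where 1.5% of all tested genes were called, and the median over the list was 0.06. At an unadjusted p under 0.05 there were 5 of the 20, beside 12.6% of all tested genes. Mybph, the myosin-binding protein H, stood at 304, 334 and 321 CPM in KO and 89.4, 150 and 87.7 CPM in WT (1.55 ± 0.35, adjusted p = 0.0152). Its WT replicate 2 lay between the other WT libraries and KO. It shares 49.9% of its exon bases with another gene and was not called without KO replicate 2 (adjusted p = 0.0686), WT replicate 1 (0.119) or WT replicate 3 (0.124). The fast myosins Myh4 and Myh1 differed by 0.07 and 0.32, and the oxidative myosin Myh2 and slow myosin Myh7 by -0.27 and 0.01, with overlapping groups for each. Of 21 slow and oxidative fibre genes 1 was called, Car3, the only 1 with an unadjusted p under 0.05, and 17 lay below 0, with a median of -0.23. The median of this list was 0.0005 at 24 h of saline and -0.007 and 0.23 at 3 h and 24 h of dexamethasone. Car3, carbonic anhydrase 3 of slow fibres and of fat cells, stood at 575, 716 and 602 CPM in KO and 1533, 1190 and 1482 CPM in WT (-1.15 ± 0.29, adjusted p = 0.0328). Every KO library was lower, but the call was lost in 5 of the 6 fits without 1 library, all but that without WT replicate 2, with adjusted p from 0.0885 to 0.139. Car3 and Mybph were both called in the same direction in all 3 other comparisons of KO with WT, given below.

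Genes of the neuromuscular junction, where the nerve's signal passes to the fibre, moved in both directions. Of 16 tested, Ache and Chrnb1 were called higher and Musk lower, where 1.5% of all tested genes were called, and the median was 0.16. At an unadjusted p under 0.05 there were 4, beside 12.6% of all tested genes. The promoters of Ache, Chrnb1 and Musk are shown because myogenic factors that bind E-boxes are known to act on junction genes in differentiating fibres. Mstn is shown with them, since it is the growth regulator described later and its promoter is a known target of the same factors. The sequences run 5′ to 3′ on the strand of the gene from 250 bases before the start to 50 bases after it, from RefSeq on GRCm38.p6, and capitals mark E-boxes (CANNTG, searched on both strands).
Musk, chr4:58285712-58286011, plus strand: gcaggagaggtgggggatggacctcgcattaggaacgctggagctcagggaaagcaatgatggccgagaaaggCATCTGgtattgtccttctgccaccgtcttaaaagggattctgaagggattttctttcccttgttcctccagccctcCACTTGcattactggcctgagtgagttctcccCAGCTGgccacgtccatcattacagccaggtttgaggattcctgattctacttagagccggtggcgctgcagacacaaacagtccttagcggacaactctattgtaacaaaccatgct
Chrnb1, chr11:69795888-69796187, minus strand: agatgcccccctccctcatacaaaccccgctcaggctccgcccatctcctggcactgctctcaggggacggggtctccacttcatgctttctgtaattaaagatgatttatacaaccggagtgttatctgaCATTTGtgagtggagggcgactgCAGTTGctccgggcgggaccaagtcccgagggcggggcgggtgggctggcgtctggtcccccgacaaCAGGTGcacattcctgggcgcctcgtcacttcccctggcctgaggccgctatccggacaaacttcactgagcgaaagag
Ache, chr5:137288004-137288303, plus strand: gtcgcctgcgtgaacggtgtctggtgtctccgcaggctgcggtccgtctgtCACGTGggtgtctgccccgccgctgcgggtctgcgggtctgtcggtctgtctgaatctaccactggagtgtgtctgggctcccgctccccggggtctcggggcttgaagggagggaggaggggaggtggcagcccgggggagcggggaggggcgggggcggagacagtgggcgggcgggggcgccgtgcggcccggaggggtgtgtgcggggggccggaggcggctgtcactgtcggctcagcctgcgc
Mstn, chr1:53061390-53061689, plus strand: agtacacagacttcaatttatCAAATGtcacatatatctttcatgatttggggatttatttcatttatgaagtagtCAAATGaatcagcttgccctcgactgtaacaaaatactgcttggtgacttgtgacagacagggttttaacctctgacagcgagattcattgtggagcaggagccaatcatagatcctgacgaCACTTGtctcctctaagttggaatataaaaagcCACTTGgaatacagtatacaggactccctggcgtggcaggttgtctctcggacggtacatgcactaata
These windows hold 3 E-boxes in Musk, 3 in Chrnb1, 1 in Ache and 4 in Mstn. An E-box stood in 63.7% of the 10856 tested genes with a promoter in the RefSeq table, in 70.6% of the 68 higher genes found there and in 59.3% of the 81 lower ones. The letters are thus common, and a match describes the sequence only.

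Musk, the receptor kinase that gathers acetylcholine receptors under the nerve ending, stood at 14.7, 9.21 and 14.5 CPM in KO and 45.4, 33.4 and 37.1 CPM in WT. Its fall of 1.59 ± 0.21 on the log2 scale had an adjusted p of 1.22e-05, and each WT library was at least 2-fold above each KO library. Ache, acetylcholinesterase, stood at 42.4, 49.98 and 41.4 CPM in KO and 28.9, 26.4 and 25.4 CPM in WT (0.73 ± 0.16, adjusted p = 0.0126). Chrnb1, the beta subunit of the muscle acetylcholine receptor, stood at 45.8, 47.9 and 37.9 CPM in KO and 27.8, 28.1 and 25.6 CPM in WT (0.69 ± 0.18, adjusted p = 0.0405). Groups were apart for both genes. The call of Ache was lost without KO replicate 2 (adjusted p = 0.109) or WT replicate 3 (0.087), and that of Chrnb1 in every fit without 1 library except that without KO replicate 3, with adjusted p from 0.0779 to 0.209. The other receptor subunits Chrna1, Chrnd and Chrne differed by 0.24, 0.22 and 0.48, and Musk's partners Lrp4, Dok7 and Rapsn by 0.11, 0.05 and -0.18, none of them called.

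Of 26 calcium handling genes edgeR called 1 higher and 1 lower, where 1.5% of all tested genes were called, with a median of 0.17. At an unadjusted p under 0.05 there were 8, beside 12.6% of all tested genes, and DESeq2 called 4. Itpr1, an inositol trisphosphate receptor that releases stored calcium, stood at 36.4, 46.7 and 46.1 CPM in KO and 74.5, 69.2 and 70.5 CPM in WT (-0.73 ± 0.15, adjusted p = 0.00715, or 0.0819 without KO replicate 1). Cacnb1, a subunit of the voltage sensor of excitation-contraction coupling, stood 0.46 higher, with groups apart, and was not called when any one of the 6 libraries was left out (adjusted p from 0.0612 to 0.151). The calcium pump Atp2a1 and the store protein Casq1 differed by 0.27 and 0.41 and were not called. edgeR called none of 20 calcineurin and NFAT genes, 1 had an unadjusted p under 0.05 and DESeq2 called 0, and their median was 0.04. The catalytic subunit Ppp3ca stood at 245, 245 and 238 CPM in KO and 190, 206 and 182 CPM in WT, a difference of 0.33 with an adjusted p of 0.28. Rcan1, a calcineurin target and inhibitor, differed by 0.34 with overlapping groups. Hdac5, a repressor of muscle genes that shuttles with calcium signals, differed by 0.26.

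Of the metabolic lists only that of glycogen held genes called by edgeR, 2 of 20, where 1.5% of all tested genes were called. At an unadjusted p under 0.05 there were 8 of the 20, beside 12.6% of all tested genes, and DESeq2 called 2. Both genes called by edgeR encode forms best known from liver. Ppp1r3b, a glycogen-targeting subunit of protein phosphatase 1, stood at 1.38, 1.70 and 1.197 CPM in KO and 3.37, 2.70 and 3.97 CPM in WT (-1.23 ± 0.26, adjusted p = 0.00687). It was not called without KO replicate 3 (0.0573) or WT replicate 3 (0.0692). Pygl, the liver glycogen phosphorylase, fell by 0.96 (adjusted p = 0.0381) and lost its call in every fit without 1 library other than that without WT replicate 2, with adjusted p from 0.0516 to 0.269. The muscle enzymes Pygm and Gys1, glycogen phosphorylase and synthase, differed by 0.23 and 0.32 and were not called, and the median of the 20 genes was 0.04. None of 21 glycolysis genes, 33 of oxidative phosphorylation, 32 of the citric acid cycle and fatty acid oxidation or 16 of mitochondrial biogenesis was called by edgeR, with medians of 0.12, 0.01, 0.07 and 0.07. At an unadjusted p under 0.05 there were 3, 2, 4 and 5, beside 12.6% of all tested genes, and DESeq2 called 0, 1, 2 and 1. The members with the smallest p were Gpd1 and Tpi1 (0.33 and 0.36), Sdha and Cox8b (0.32 and -0.66), Idh3a and Ogdh (0.30 and 0.40), and Prkag3 and Mfn2 (0.72 and 0.29), with adjusted p of 0.0732 or more.

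Among 29 genes of muscle growth and atrophy 1 was called, where 1.5% of all tested genes were. At an unadjusted p under 0.05 there were 9, beside 12.6% of all tested genes. Mstn, which encodes myostatin, a secreted brake on muscle mass, stood at 60.0, 45.8 and 56.9 CPM in KO and 122, 121 and 131 CPM in WT. The fall of 1.20 ± 0.20 on the log2 scale had an adjusted p of 4.17e-04, and each WT library was at least 2-fold above each KO library. The atrophy ligases Fbxo32 (atrogin-1) and Trim63 (MuRF1) differed by -0.86 and -0.71, with adjusted p of 0.25 and 0.27. Fbxo32 stood at 486, 350 and 474 CPM in KO and 896, 674 and 806 CPM in WT without overlap, whereas Trim63 overlapped. Acvr2b, a myostatin receptor, differed by 0.62 (adjusted p = 0.11), and Igf1 by -0.42 (0.47). Of 16 myogenic and regeneration genes only Igfn1 was called, 5 had an unadjusted p under 0.05, and the median was 0.08.

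The remaining lists were counted in the same way, beside calls in 1.5% of all tested genes and an unadjusted p under 0.05 in 12.6%. Under that p lay 4 of 24 glucocorticoid receptor targets, 10 of 28 interferon and antigen presentation genes and 2 of 26 immediate early genes. DESeq2 called 1, 4 and 1 of them. Of 24 glucocorticoid receptor targets 1 was called, Hif3a, a hypoxia-inducible factor subunit, at 1.80, 1.44 and 2.02 CPM in KO and 5.30, 4.01 and 3.20 CPM in WT (-1.25 ± 0.27, adjusted p = 0.00797). It was not called without KO replicate 2 (0.0854) or WT replicate 1 (0.112). The classical targets Fkbp5 and Per1 differed by -0.40 and -0.18 with overlapping libraries, and the median of the list was -0.19. Of 28 interferon and antigen presentation genes 26 lay below 0, with a median of -0.28. Their median was -0.21 at 24 h of saline and 0.004 and 0.01 at 3 h and 24 h of dexamethasone. Psmb8, a subunit of the immunoproteasome, fell by 0.89 (adjusted p = 0.0401) and Gbp2, a guanylate-binding protein, by 0.75 (0.0465). Both were highest in WT replicate 1, at 6.23 and 24.5 CPM, and without it their adjusted p were 0.463 and 0.581. They were also not called without KO replicates 1, 2 or 3, with adjusted p from 0.0551 to 0.210. Of 26 immediate early genes 1 was called, Fosl1, described with the genes near Actn3, and the median was -0.11.

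No member was called by edgeR among 25 genes of the dystrophin complex and costamere, 27 of matrix, 26 of the proteasome, 22 heat shock genes and 18 clock genes. Their medians were 0.13, 0.04, 0.04, -0.02 and -0.03. At an unadjusted p under 0.05 there were 10, 0, 0, 0 and 3, beside 12.6% of all tested genes, and DESeq2 called 3, 0, 0, 0 and 0. The smallest p belonged to Tln2 and Sgcb (0.39 and 0.33, adjusted p = 0.0748 and 0.0786), Timp1 and Tnc (-0.81 and 0.29), Psmd1 and Psmc4 (0.20 and 0.17), Hspb8 and Hspb2 (-0.38 and -0.25), and Rora and Tef (-0.34 and 0.31). Tln2 encodes talin-2 and Sgcb beta-sarcoglycan, which link the sarcomere and membrane to the matrix.

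**Figure D3:**
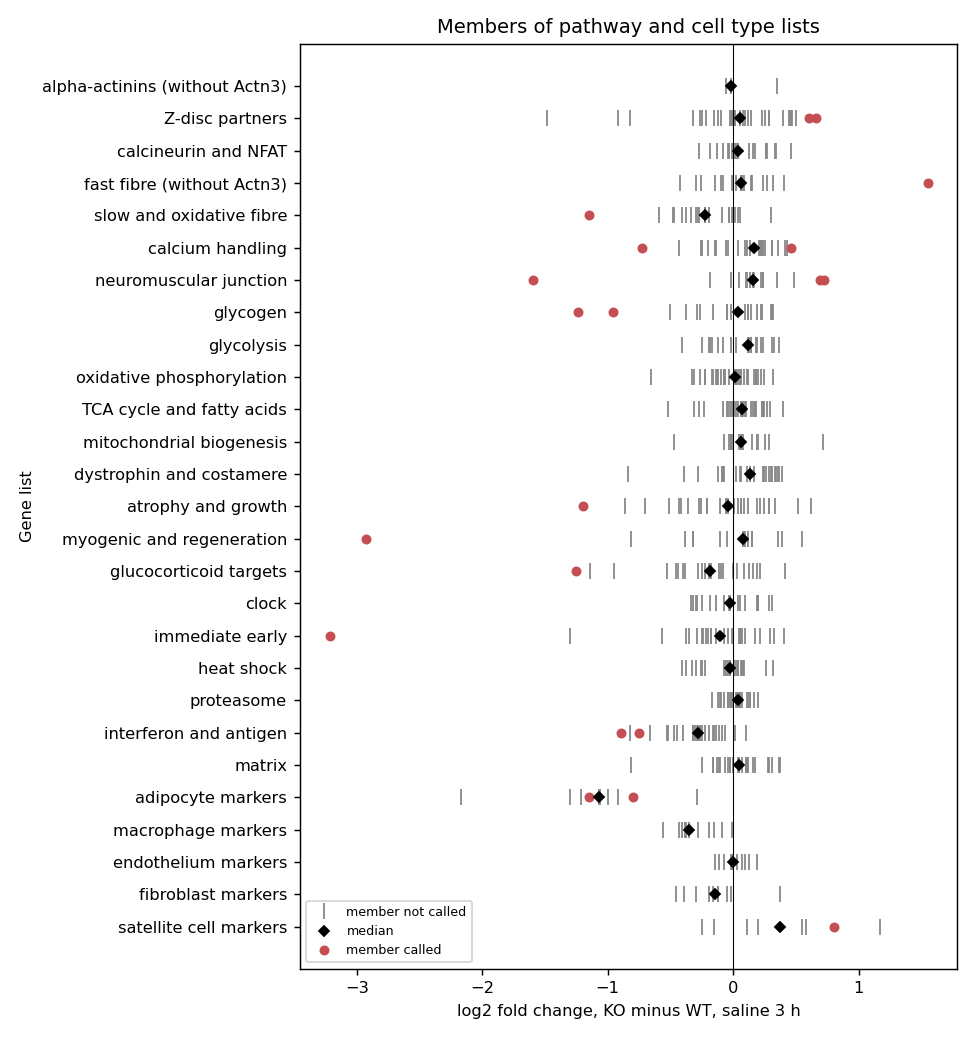
Log2 fold change, KO minus WT, of each tested member of the 22 pathway lists and of 5 of the 12 cell type lists (1 row a list). Ticks are members not called, filled circles called members and diamonds list medians; Actn3 is not drawn. Most lists centre near 0 with 0 to 3 called members, whereas all 10 adipocyte markers lie below 0, with a median of -1.07.

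Adipocyte markers had the median furthest from 0 among the 12 cell type lists. Summed over the 10 markers the level was 976, 1024 and 918 CPM in KO and 2367, 1623 and 2184 CPM in WT, without overlap. Car3, which slow fibres express too, made up most of each sum, and without it the sums were 400.3, 308 and 316 CPM in KO and 834, 432 and 702 CPM in WT, with WT replicate 2 close to KO replicate 1. All 10 lay below 0 with a median of -1.07, and Car3 and Fabp4 were called, where 1.5% of all tested genes were. Of the 10 markers 9 had an unadjusted p under 0.05, beside 12.6% of all tested genes. DESeq2 called 2 of them and limma-voom 7, of 342 and 1221 genes they called in all. Adipoq (adiponectin) stood at 31.8, 22.4 and 25.3 CPM in KO and 65.3, 33.7 and 68.2 CPM in WT, and Plin1 (perilipin) at 20.4, 17.8 and 13.3 CPM against 44.5, 19.1 and 39.0 CPM. WT replicate 2 was the lowest WT library in both genes, close to KO. Fabp4, the fatty acid carrier of fat cells, fell by 0.80 (adjusted p = 0.0375), a call lost in every fit without 1 library other than that without WT replicate 2, with adjusted p from 0.0551 to 0.209. In bulk muscle, fewer fat cells and less of these RNAs per cell cannot be told apart. The median of the 10 markers was -0.58 in saline at 24 h and -0.04 and -0.06 after dexamethasone at 3 h and 24 h.

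Macrophage markers also lay apart, with sums of 216 to 240 CPM in KO and 263 to 278 CPM in WT. All 11 were below 0 (median -0.35), and edgeR and DESeq2 called none of them, with 0 at an unadjusted p under 0.05. The macrophage median was -0.42 at 24 h of saline and -0.25 and 0.12 at 3 h and 24 h of dexamethasone. Sums for neutrophils, lymphocytes, erythroid cells, endothelium, smooth muscle and pericytes, fibroblasts, satellite cells, Schwann cells and tendon overlapped between the groups. The medians over their tested markers ran from -0.62 for 3 erythroid genes to 0.37 for 8 satellite cell genes. Of the satellite cell genes Fgfr4, a fibroblast growth factor receptor, was called (0.80, adjusted p = 0.0474) and lost the call without each library in turn except WT replicate 2, with adjusted p from 0.0722 to 0.270. Of the 8 satellite cell genes 6 lay above 0 and 2, Cdh15 and Sdc4, below. An unadjusted p under 0.05 was found for 3 of the 8, beside 12.6% of all tested genes, of which 1.5% were called. Pax7, Myf5 and Calcr, not called, were also higher in KO without overlap, where 26.8% of all tested genes did not overlap. The list median was 0.40 at 24 h of saline and 0.25 and 0.34 at 3 h and 24 h of dexamethasone.

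The calls were set beside the adipocyte marker level by adding it as a covariate, a fit chosen after the data were seen. With the mean log2 CPM of 9 adipocyte markers in the model (Car3 left out), 86 genes were called, of which 75 were among the 210, and all 210 kept their direction. Among those that kept the call were Slc2a3 (-2.76), Neto2 (-3.22), Igfn1 (-2.19), Stab2 (-1.81), Mstn (-1.40), Musk (-1.51), Cd28 (1.49), Myom2 (0.98), Obsl1 (1.24) and Myoz3 (0.57). Among those that lost it were Cidea (-1.07, adjusted p = 0.277), Pygl (-0.54, 0.524), Car3 (-0.58, 0.547), Fabp4 (-0.19, 0.767), Tceal7 (1.63, 0.0819), Ift122 (1.19, 0.0644), Lrp2bp (1.01, 0.0899), Mybph (1.38, 0.165) and Tnfrsf19 (0.92, 0.181). Myot (0.59, 0.205), Ache (0.62, 0.185) and Chrnb1 (0.76, 0.130) lost it too. Fabp4 is itself 1 of the 9 markers in the covariate, so its smaller value there carries no test. Genotype and marker level moved together in these 6 libraries, as the marker mean was 4.32, 3.72 and 3.71 in KO and 5.36, 4.38 and 5.12 in WT on the log2 scale.

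**Figure D4:**
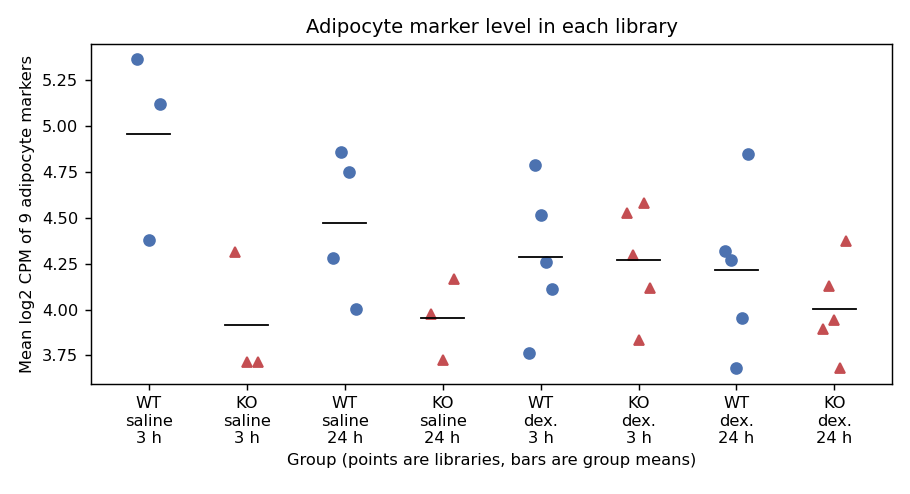
Mean log2 CPM of 9 adipocyte markers in each of the 33 libraries, by genotype, treatment and time, with points as libraries and bars as group means. At 3 h of saline the KO libraries lie at 3.71 to 4.32 and the WT libraries at 4.38 to 5.36. The genotypes overlap at 24 h of saline and at both times after dexamethasone.

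Genes close to Actn3 on chromosome 19, which are inherited together with its allele, were counted on their own. Within 2 Mb of Actn3 4 of 118 tested genes were called (3.39%), and between 2 and 10 Mb 4 of 100 (4%). Further away on the chromosome 4 of 263 were called (1.52%), and on other chromosomes 197 of 13343 (1.48%). Adrbk1 (now Grk2), a kinase that switches off beta-adrenergic receptors, lies 0.573 Mb away at chr19:4286001-4306222 on GRCm38. It stood at 131, 125 and 138 CPM in KO and 66.9, 60.6 and 63.1 CPM in WT (1.05 ± 0.17, adjusted p = 4.49e-04), and all KO libraries lay far above WT. Ctsf, the lysosomal protease cathepsin F, lies 0.0115 Mb from Actn3 and rose by 0.53 (adjusted p = 0.00762, but 0.113 without KO replicate 1 and 0.0631 without WT replicate 1). Capn1, the calcium-activated protease calpain-1, rose by 0.42 (adjusted p = 0.0375) and kept its call only in the fit without WT replicate 1 among those without 1 library, with adjusted p from 0.0903 to 0.166 in the others. Fosl1, an AP-1 transcription factor, lies 0.582 Mb away and was barely detected, at 0.240, 0.064 and 0.0315 CPM in KO and 0.826, 0.929 and 1.53 CPM in WT. Its fall of 3.22 ± 0.65 had an adjusted p of 0.00507 and was not called without KO replicate 2 (0.0637), KO replicate 3 (0.0538) or WT replicate 3 (0.0541), and 57.2% of its exon bases are shared with another gene. The 4 nearest of the other tested genes, Zdhhc24, Bbs1, Ccs and Dpp3, differed by 0.44, 0.51, -0.002 and -0.10 and were not called.

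The same genotype difference was then read in the other libraries, none of which entered the 6. There KO against WT gave 443 called genes at 24 h of saline (3.17% of tested), 419 at 3 h of dexamethasone (3%) and 724 at 24 h of dexamethasone (5.19%). Of the 209 genes other than Actn3 called at 3 h of saline, 208 had the same sign at 24 h of saline and 110 (52.6%) were called there with it. After dexamethasone 195 had the same sign and 123 (58.9%) were called with it at 3 h, and 201 and 125 (59.8%) at 24 h. None was called with the opposite sign. Of the 13745 genes not called at 3 h of saline, 65.4%, 64.1% and 60.0% had the same sign. The median size of the 209 differences was 0.80 at 3 h of saline and, read in that direction, 0.61, 0.47 and 0.46 elsewhere. The genes were called for their size at 3 h of saline, so smaller values elsewhere carry no test.

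A core of 84 genes was called in the same direction in all 3 other comparisons, 34 of them higher and 50 lower in KO, and 56 were called in none of them. Slc2a3 fell by 3.07, 1.86 and 2.39 at 24 h of saline, 3 h of dexamethasone and 24 h of dexamethasone. Musk fell by 1.35, 1.04 and 1.34, and Mstn by 1.04, 0.54 and 1.55 in the same order. Cd28 rose by 1.52, 1.66 and 1.41, Myoz3 by 0.59, 0.63 and 0.66, Adrbk1 by 0.79, 1.16 and 0.85, and Ache by 0.60, 0.49 and 0.46. All of these were called in each. Arid5a was called in none of the other comparisons, at 0.58, 0.29 and 0.26, and Cidea had the values -0.76, 0.27 and 0.41, Fabp4 -0.22, -0.06 and -0.01, and Fosl1 -0.95, -1.04 and 0.62 without a call.

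**Figure D5:**
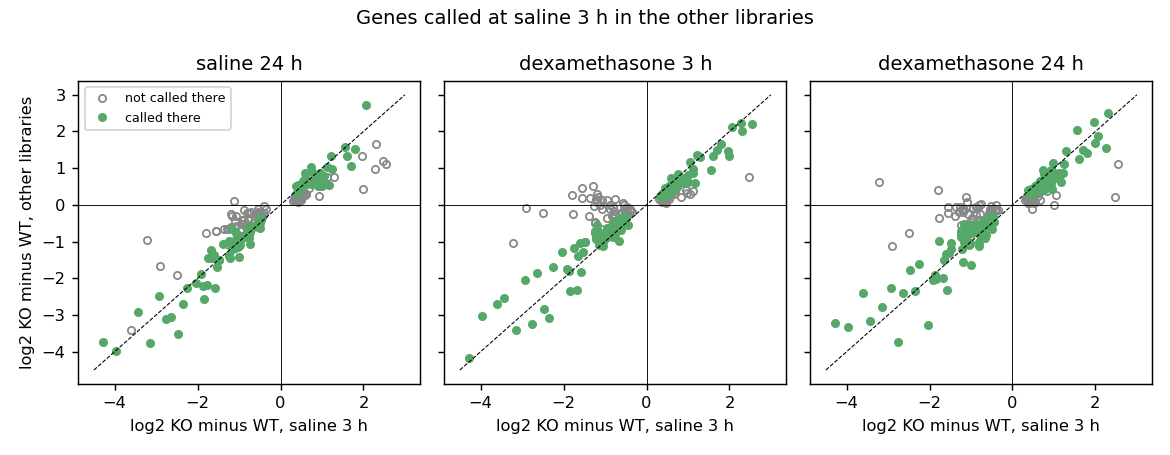
Log2 fold change, KO minus WT, of the 209 genes called at 3 h of saline besides Actn3 (horizontal axis) against the same difference in the libraries of saline 24 h, dexamethasone 3 h and dexamethasone 24 h (vertical axis). Filled points were called there, and the dashed line marks equal values; most points lie in the same-sign quadrants, and after dexamethasone a group of genes lower at 3 h of saline lies near 0.

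Whether the genotype difference itself changed with time or treatment was tested as an interaction. In saline, 3 h against 24 h, edgeR called no gene, and DESeq2 and limma-voom called 0 as well. In edgeR 532 genes, 3.81% of all tested, had an unadjusted p under 0.05, and the smallest adjusted p was 0.9996. The smallest p belonged to Znrf2 (-0.39 at 3 h and 0.23 at 24 h), Myh3, the embryonic myosin (0.36 and -1.50), B3galt2 (-1.12 and 0.11), Mob1b (0.02 and 0.71) and Wbp5 (-0.17 and 0.31). Between saline and dexamethasone at 3 h edgeR also called none, while DESeq2 called 5 and limma-voom 8. In edgeR 460 genes, 3.30% of all tested, had an unadjusted p under 0.05, and the smallest adjusted p was 0.145. That smallest p was for Catsper4, a sperm ion channel gene (-0.70 in saline and 0.97 after dexamethasone). It was followed by Cidea (-1.80 and 0.27), H2-Q10, a class I antigen gene (-1.57 and 0.47), Pde3b, a phosphodiesterase of fat cells (-1.23 and 0.16), Prkar2b, a regulatory subunit of protein kinase A (-1.36 and 0.18) and Adora1, an adenosine receptor (-1.08 and 0.58). Each of these last 5 had an adjusted p of 0.277. Of them, Cidea, H2-Q10, Pde3b and Prkar2b were called at 3 h of saline and lost that call with the adipocyte marker covariate.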

How the data were processed

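RNA of quadriceps muscle was sequenced in 33 libraries, grouped by their labels for genotype, treatment and time. The deposited files give raw counts of reads for 23420 gene symbols in each library. STAR, HTSeq (no version), limma 3.40.6 and mm10 stand in the submitters' processing notes. What each did, and which annotation and strand rule were applied, is not given in the sources used here. The TruSeq kit of the labels' protocols does not mark strand, so overlapping genes on both strands may share reads. The authors' own tables of comparisons were not used here.

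Reads of no feature (28.3 to 29.2% of counted reads in KO, 29.2 to 32.5% in WT) and ambiguous reads (0.188 to 0.252%) were left out. Counts of libraries within a group differed beyond sampling noise in every pair (chi-square over degrees of freedom at least 11.5). The analysis used edgeR 4.0.16 in R 4.3.3. The filter was filterByExpr over the 8 groups, the scaling TMM, and the model a quasi-likelihood fit of 8 group means to all 33 libraries. Contrasts were tested with Benjamini-Hochberg adjustment over all 13955 genes at 0.05. An SE is the size of the log2 fold change divided by the square root of F. Alternatives included DESeq2 1.42.0 and limma-voom 3.58.1. Replicate numbers follow the listed order of the libraries.

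The comparison, the 34 gene lists (604 genes, 584 tested) and the tests were chosen with earlier results of these data known. Named genes are Actn3, the 12 called genes that rose most and the 12 that fell most (mean log2 CPM of 1 or more, no overlap of the 6 libraries, no clone names), called members of each list or else the 2 with the smallest p, the 6 genes with the smallest p in each interaction, and called genes within 2 Mb of Actn3. Genes known by a clone or model name were counted and not named, also in the interactions, and 1 of the 12 genes that fell most is not reported here. Shared exon bases and positions came from GENCODE M21 on GRCm38. Promoters came from RefSeq (GRCm38.p6), where 10856 of 13851 tested genes matched.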

Additional observations from a re-analysis of the deposited data

How the results depend on the processing

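The direction of all 210 called genes was the same in every alternative in which they were tested, and Actn3 was called in each. The count of called genes stayed between 180 and 254 with RLE factors, library totals alone, 2 other low count filters, robust empirical Bayes and the 13 saline libraries. It was 951 with only the 6 libraries in the fit, 476 without 5 libraries of a separate name series (none of them among the 6), 342 with DESeq2 and 1221 with limma-voom and sample weights. It ranged from 76 to 187 when 1 library was left out: 106, 76 and 115 without KO replicates 1, 2 and 3, and 95, 187 and 86 without WT replicates 1, 2 and 3. The cause of these shifts was not tested. The count was 86 with the adipocyte marker covariate, chosen after seeing the data. Of the 210 genes 58 were called in all 6 fits without 1 library and 57 in these and the 10 other settings besides the covariate. The fits without 1 library assume that the group left with 2 varies like the others. The genotype by treatment count at 3 h moved from 0 to 5 with DESeq2 and 8 with limma-voom, and from 0 to 1 over the fits without 1 library (1 without WT replicate 2). No paired analysis was possible because no label numbers the replicates. At this depth 14 called genes had a mean CPM under 1.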

Other observations

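Ribosomal protein genes, a family chosen after the data were seen, lay slightly lower in KO. Of 81 tested cytosolic genes 78 had a log2 fold change below 0, with a median of -0.36 against -0.02 over all tested genes, and the KO and WT libraries did not overlap for 70 of them, where 26.8% of all tested genes did not. Of the 81 genes 5 were called lower and 0 higher in edgeR, where 0.853% and 0.652% of all tested genes were. Rps3a1 stood at 125, 111 and 126 CPM in KO and 166, 179 and 179 CPM in WT (-0.53 ± 0.09, adjusted p = 0.00104) and kept its call without any single library. Rps24, Rpl14, Rpl17 and Rpl21 fell by 0.53, 0.51, 0.42 and 0.39, and lost their calls without KO replicate 2, with adjusted p of 0.146, 0.319, 0.180 and 0.187, and without others of the 6 libraries in turn: KO replicates 1 and 3 for Rpl14, Rpl17 and Rpl21, WT replicates 1 and 3 for all 4, and WT replicate 2 for Rpl14 and Rpl21. The family's median was -0.37 at 24 h of saline and -0.14 and -0.10 at 3 h and 24 h of dexamethasone. Genes with a short total exon length moved the same way. The median difference was -0.12 in the 2765 tested genes of shortest total exon length (67 to 2515 bases). It was 0.02 in the 2765 of longest total exon length (7621 bases or more). Among the 6 libraries, medians for the shortest genes lay -0.12, 0.07 and 0.10 from the mean in KO replicate 2 and WT replicates 1 and 3 (log2 scale). In KO replicates 1 and 3 and WT replicate 2 they lay -0.01, -0.02 and -0.0006 from it. In the other libraries the median differences of the shortest and longest genes were -0.15 and 0.08 at 24 h of saline. They were -0.05 and 0.02 at 3 h of dexamethasone and -0.02 and -0.01 at 24 h of dexamethasone. The part of exon length and of the deeper KO libraries in the ribosomal values was not tested.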
